A study of Saccharomyces cerevisiae with 4 samples.

Results

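Thioredoxin, peroxiredoxin, superoxide dismutase and glutaredoxin genes of budding yeast were followed through exposure to caspofungin, an antifungal drug that blocks synthesis of the wall polymer beta-1,3-glucan. The 10 genes were chosen by name for what they encode, with earlier results of these data known, out of the 6207 genes in the deposited table. All 10 had a value on each of the 4 arrays. They are TRX2 (YGR209C) and TRR1 (YDR353W) of the thioredoxin system, the peroxiredoxins TSA1 (YML028W), TSA2 (YDR453C), AHP1 (YLR109W) and PRX1 (YBL064C), the dismutases SOD1 (YJR104C) and SOD2 (YHR008C), and the glutaredoxins GRX1 (YCL035C) and GRX2 (YDR513W). The cells were a mid2 mutant of BY4741, a laboratory strain of mating type a. MID2 encodes a surface sensor of cell wall stress, and treated and untreated cells alike carried the mutation, so that the data hold no strain with an intact MID2. Each of 2 cultures in the rich medium YEPD at 24 °C was split, and 1 part received 15 ng/ml caspofungin for 2 h while the other part stayed untreated. Every array compared both parts of a culture with 2 fluorescent dyes, and the dyes were swapped between arrays. Caspofungin RNA carried the dye Cy5 on arrays 2 and 4, called the Cy5 arrays below, and Cy3 on arrays 1 and 3, called the Cy3 arrays.

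Hydrogen peroxide and superoxide are by-products of respiration. Superoxide dismutases turn superoxide into peroxide, which peroxiredoxins reduce with a reactive cysteine. Thioredoxin returns the oxidised peroxiredoxin to its working form and is itself reduced by thioredoxin reductase with NADPH. Glutaredoxins do related thiol chemistry with glutathione. In yeast many of these genes are known targets of the peroxide-responsive factors Yap1 and Skn7, and several also of the general stress factors Msn2 and Msn4.

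The values are deposited log2 ratios, and their direction is not stated in the sources used here. A positive ratio is taken below as higher with caspofungin. That direction is likely rather than settled, and its basis is that the series and each array are titled by the treated condition. The alternative reading is that the ratios follow the dyes, so that the sign must be turned on the arrays with caspofungin RNA in Cy3. HIS3 and LEU2 are disrupted in BY4741, in treated and untreated cells alike. HIS3 read 0.40 and 0.39 on the Cy5 arrays, and -0.63 and -0.64 on the Cy3 arrays. LEU2 read 0.24 and 0.25 on the Cy5 arrays, and -0.58 and -0.64 on the Cy3 arrays. Both thus changed sign with the dyes in the values as deposited. The same arrays gave the small stress protein gene HSP12 positive ratios of 4.73, 3.14, 3.63 and 4.08 on arrays 1 to 4. MID2 was blank on all arrays, which does not test the genotype. Of 7 a-cell markers 6 had values on all arrays and 1 was blank. Of 4 alpha-cell markers 0 had values on all arrays, MF(ALPHA)2 had values on 3, SAG1 on 1, and 2 were blank. The rule for blanks is not known, so these counts do not test the mating type.

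None of the redox enzyme genes passed the test of caspofungin against untreated cells. The count was 0 of 10 (limma, Benjamini-Hochberg adjusted p from 0.201 to 0.847), and 0 also at an unadjusted p under 0.05. Over the 2925 genes with a value on every array the test called 0.0342% in either direction, which is the single gene HSP12, and 25.3% had an unadjusted p under 0.05. The mean log2 ratios of the redox genes ran between -0.20 for TSA1 and 0.34 for GRX1, with a median of 0.010, beside a median of -0.13 over all genes compared. No mean reached 2-fold (0 of 10), beside 1.61% of all genes. The 95% interval of the mean, the wider of both ways to pair the arrays into cultures, lay within a 2-fold change in either direction for 10 of 10 genes, and for 94.6% of all genes. Changes of 2-fold or more were therefore outside the intervals of all of them, while smaller ones were not. These intervals rest on 2 cultures and on a variance borrowed from all genes. The labels do not say whether the cultures were started independently, and p-values measure only the spread between them.

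**Figure D1:**
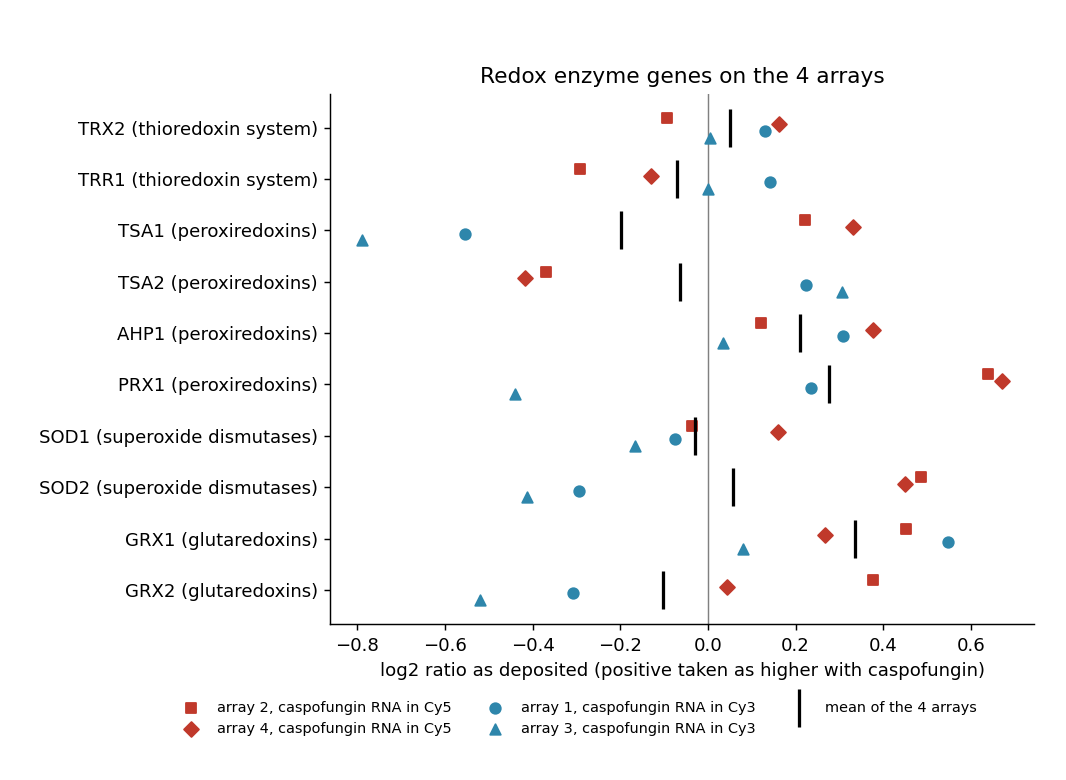
Log2 ratio of each redox enzyme gene (horizontal axis) on each array, with arrays that carried caspofungin RNA in Cy5 in red and in Cy3 in blue, and the mean of the 4 arrays as a black bar. TSA1, SOD2 and GRX2 have both red points above 0 and both blue points below it, TSA2 has the opposite order, and all points of AHP1 and GRX1 lie above 0.

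The ratios of the thioredoxin system lay on both sides of 0. TRX2, a cytosolic thioredoxin that is a classic Yap1 target, had log2 ratios of 0.13, -0.094, 0.0043 and 0.16 on arrays 1 to 4. Its mean was 0.051 ± 0.12 (SD, n = 4 arrays), with a 95% interval from -0.21 to 0.31. TRR1, the cytosolic thioredoxin reductase, had 0.14, -0.29, -0.00043 and -0.13. Its mean was -0.070 ± 0.19 (SD, n = 4 arrays), with an interval from -0.33 to 0.19. Their paralogues are not among the 10 genes. TRX1, the other cytosolic thioredoxin, had a negative ratio on all arrays (-0.22, -0.063, -0.43 and -0.021) and a mean of -0.18 ± 0.19 (limma, adjusted p = 0.286). TRX2 less TRX1 was positive on 3 of the arrays (0.35, -0.031, 0.43 and 0.18). TRR2, the mitochondrial reductase, tracked TRR1 closely, with 0.12, -0.20, -0.017 and -0.18, so that TRR1 less TRR2 was between -0.096 and 0.051 on each array. The paralogues share sequence, and whether their spots share signal was not tested.

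Among the peroxiredoxins the pair TSA1 and TSA2 showed opposite signs on every array. TSA1, the abundant cytosolic peroxiredoxin, had log2 ratios of 0.22 and 0.33 on the Cy5 arrays, and -0.55 and -0.79 on the Cy3 arrays. TSA2, its closely related and normally scarce paralogue, had -0.37 and -0.42 on the Cy5 arrays, and 0.23 and 0.31 on the Cy3 arrays. In both genes the sign followed the dyes, as it did in 33.1% of all genes. TSA1 less TSA2 was 0.59 and 0.75 on the Cy5 arrays, and -0.78 and -1.09 on the Cy3 arrays. Because the orientations cancel, the means were small, at -0.20 ± 0.56 for TSA1 and -0.064 ± 0.38 for TSA2 (SD, n = 4 arrays), and the adjusted p was 0.270 and 0.677 (limma). Leaving out an array makes the orientations unequal in number, so that they no longer cancel. The mean of TSA1 was then -0.00035 without array 3 and -0.37 without array 4.

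AHP1, a cytosolic peroxiredoxin that favours alkyl hydroperoxides, kept a positive ratio on all arrays. Its values were 0.31, 0.12, 0.034 and 0.38 on arrays 1 to 4, with a mean of 0.21 ± 0.16 (SD, n = 4 arrays), a 1.16-fold difference that did not pass (limma, adjusted p = 0.275). PRX1, the mitochondrial peroxiredoxin, was positive on 3 arrays, with 0.24, 0.64 and 0.67 on arrays 1, 2 and 4, and negative on array 3, with -0.44. Its mean of 0.28 ± 0.52 (SD, n = 4 arrays) did not pass either (limma, adjusted p = 0.243). That mean became 0.52 without array 3 and 0.14 without array 4, again with the orientations unequal in number. AHP1 and PRX1 had a higher mean than 89.6% and 91.7% of the genes compared as deposited, and than 48.9% and 86.6% with the arrays turned by the dye labels.

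SOD1, the copper and zinc dismutase of the cytosol, had ratios of -0.075, -0.037, -0.17 and 0.16 on arrays 1 to 4 and the mean nearest to 0 of the 10 genes, -0.030 ± 0.14 (SD, n = 4 arrays). SOD2, the manganese dismutase of the mitochondrial matrix, had 0.49 and 0.45 on the Cy5 arrays, and -0.29 and -0.41 on the Cy3 arrays. As for TSA1, the sign followed the dyes, and the mean was 0.057 ± 0.48 (limma, adjusted p = 0.708). The mean of SOD2 turned to -0.085 without array 2 and -0.074 without array 4. CCS1, the chaperone that loads copper into Sod1, had a mean of -0.14 ± 0.19, and MTM1, a mitochondrial carrier needed for Sod2 activity, had -0.15 ± 0.22. Neither passed (limma, adjusted p = 0.436 and 0.394).

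The glutaredoxin paralogues differed in their sign order. GRX1 had the largest mean of the 10 genes, and its ratios were positive on all arrays, at 0.55, 0.45, 0.081 and 0.27 on arrays 1 to 4. The mean of 0.34 ± 0.21 (SD, n = 4 arrays) is a 1.26-fold difference, higher than 93.2% of the genes compared as deposited and than 47.0% with the arrays turned by the dye labels, and its 95% interval ran from -0.0072 to 0.68 (limma, adjusted p = 0.201). GRX2, which supplies most of the dithiol glutaredoxin activity, had 0.38 and 0.043 on the Cy5 arrays, and -0.31 and -0.52 on the Cy3 arrays. Its mean was -0.10 ± 0.39 (SD, n = 4 arrays; limma, adjusted p = 0.551). GRX1 exceeded GRX2 on each array, by 0.85, 0.076, 0.60 and 0.22. The 5 genes whose 4 ratios lay nearest to those of GRX1, by Euclidean distance on the log2 scale, were OM14 (distance 0.132), YSW1 (0.216), ABP1 (0.225), RBK1 (0.229) and ARI1 (0.240).

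Counted over all 10 genes, 2 had positive ratios on every array, AHP1 and GRX1, beside 6.87% of all genes compared. None was negative throughout (0 of 10), beside 19.3% of all genes. The signs of 4 genes followed the dyes, beside 33.1% of all genes. TSA1, SOD2 and GRX2 were positive with caspofungin RNA in Cy5 and negative with it in Cy3, the sign order of HIS3 and LEU2, which 19.7% of genes showed. TSA2 had the reverse order, which 13.4% showed. TRX2, TRR1, PRX1 and SOD1 had mixed signs. These shares are descriptions of a list of 10 genes and carry no test.

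The arrays were not centred exactly on their genes, with medians from -0.22 on array 3 to -0.057 on array 2. With each array centred on its median, the median of the gene means moved to -0.016 over all genes and to 0.12 over the 10 redox genes. The centred mean was then above 0 for 9 of the 10, TSA1 being the exception at -0.084, beside 46.2% of all genes. As deposited it was above 0 for 5 of the 10, beside 27% of all genes. After centring, TRX2 had 0.16, TRR1 0.043, TSA2 0.049, AHP1 0.32, PRX1 0.39, SOD1 0.083, SOD2 0.17, GRX1 0.45 and GRX2 0.011. The means of TRR1, TSA2, SOD1 and GRX2 thus changed sign with the centring, and 3 genes, AHP1, SOD1 and GRX1, were positive on every centred array, beside 11% of all genes. None was negative on every centred array (0 of 10), beside 8.72% of all genes, and the centred signs of 5 followed the dyes, beside 40.8%. The high share depended on the direction: with the centred arrays also turned by the dye labels, an alternative added after seeing the data, the mean was above 0 for 5 of the 10, beside 50.2% of all genes, and the median of the redox genes was 0.017. After centring 0 of the 10 passed the test, turned or not.

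**Figure D2:**
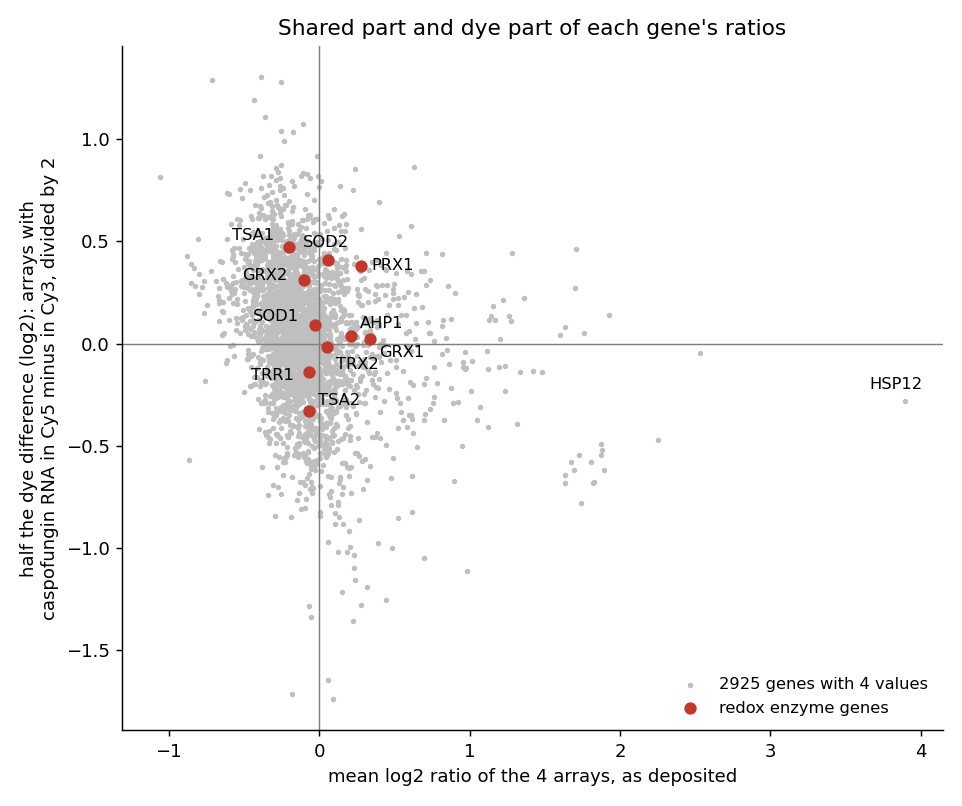
Mean log2 ratio of the 4 arrays (horizontal axis) against the difference between the dye orientations divided by 2 (vertical axis, log2, caspofungin RNA in Cy5 minus in Cy3) for the 2925 genes with 4 values in grey and the redox enzyme genes in red. The redox genes spread further along the vertical axis, from -0.33 for TSA2 to 0.47 for TSA1, than along the horizontal one, from -0.20 to 0.34.

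The part of the ratios that followed the dyes was larger in several of these genes than the part shared by all arrays. It is given as the difference between arrays with caspofungin RNA in Cy5 and those with it in Cy3, divided by 2. TSA1 had 0.47 (95% interval 0.21 to 0.73), SOD2 had 0.41 (0.17 to 0.65) and PRX1 had 0.38 (0.037 to 0.72). GRX2 had 0.31, and TSA2 had -0.33 (-0.57 to -0.085). HIS3 and LEU2 had 0.51 and 0.43 on the same measure. The other 5 genes, TRX2, TRR1, AHP1, SOD1 and GRX1, were between -0.14 and 0.091. The median size over the 10 genes was 0.226, beside 0.204 over all genes. No redox gene passed the test of the dye part (0 of 10, limma, lowest adjusted p = 0.0763), and neither did any other gene (0%). At an unadjusted p under 0.05 it was 4 of the 10, TSA1, TSA2, PRX1 and SOD2, beside 32.3% of all genes. With the 4 arrays taken as replicates and a dye term, 3 redox genes passed it, TSA1, TSA2 and SOD2 (limma, adjusted p = 0.0239, 0.0404 and 0.0262), beside 20.9% of all genes. That fit takes arrays of the same culture as independent, which they were not. What the dye part stems from was not tested.

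If the ratios follow the dyes, that dye part would be read as the response to caspofungin. HSP12 would then be positive on the Cy5 arrays and negative on the Cy3 arrays. HIS3 and LEU2, disrupted in treated and untreated cells alike, would average 0.51 and 0.43. On that reading the mean log2 ratio was 0.47 ± 0.25 for TSA1, 0.41 ± 0.083 for SOD2, 0.38 ± 0.42 for PRX1 and 0.31 ± 0.20 for GRX2, against -0.33 ± 0.083 for TSA2 and -0.14 ± 0.12 for TRR1 (SD, n = 4 arrays). GRX1 and AHP1 then averaged 0.023 ± 0.44 and 0.039 ± 0.29, with signs that differed between arrays. Both readings gave 0 of 10 genes past the test, and both gave 95% intervals within 2-fold for 10 of 10. They differ in which genes carry the same sign throughout: AHP1 and GRX1 as deposited, and TSA1, SOD2, GRX2 and, with negative sign, TSA2 when turned. The order of TSA1 over TSA2 in particular depends on the reading.

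**Figure D3:**
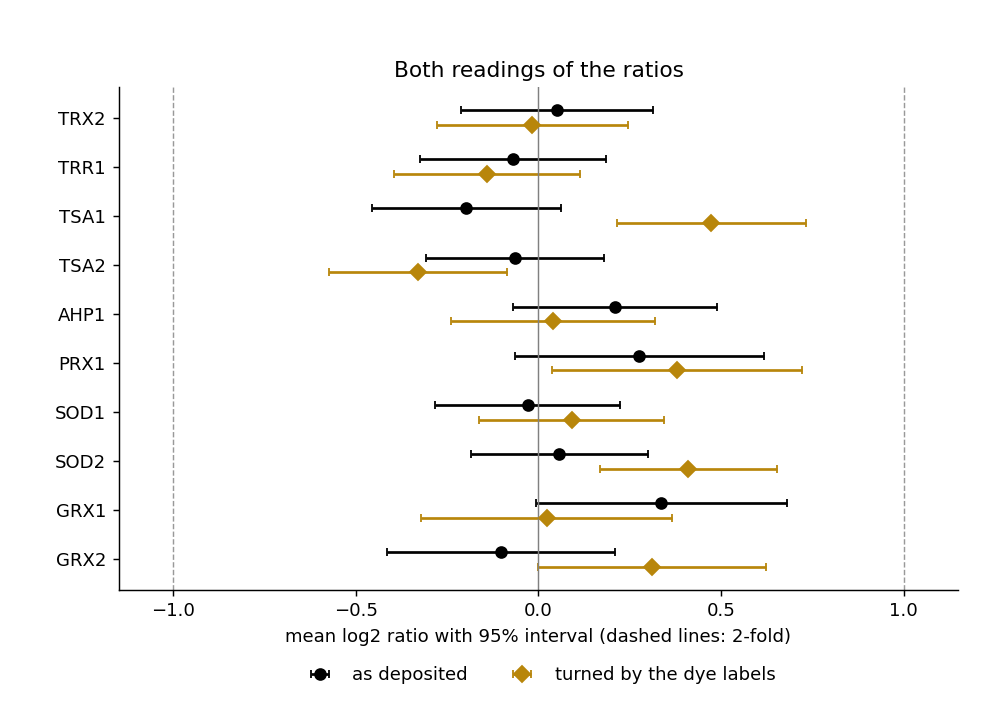
Mean log2 ratio of the 10 redox enzyme genes with its 95% interval (horizontal axis), as deposited (black circles) and with the arrays that carried caspofungin RNA in Cy3 turned in sign (yellow diamonds). All intervals of both readings lie inside the dashed lines at a 2-fold change. The absolute means of TSA1, TSA2 and SOD2 grow the most when turned, and GRX2 moves from -0.10 to 0.31.

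The genes around these enzymes were followed through 6 lists with 74 genes in all, of which 71 were in the table, 39 had a value on every array, 14 on some arrays and 18 on none. None of the 39 passed in either direction (0 higher and 0 lower, limma, lowest adjusted p = 0.163), and 10 had an unadjusted p under 0.05, beside 25.3% of all genes. Ratios were positive on all arrays for 4 of them, beside 6.87% of all genes. They were negative on all arrays for 9, beside 19.3%, and 15 followed the dyes, beside 33.1%. Their median was -0.076, beside -0.13 over all genes. The blank genes included CTT1 (cytosolic catalase), SRX1 (sulfiredoxin, which repairs over-oxidised Tsa1), and the regulators YAP1, MSN2 and MSN4. A blank does not show a low level, since the rule that left values out is not given in the sources used here.

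Of 6 genes with all 4 values that supply NADPH, the reducing power behind thioredoxin reductase, 2 were positive on every array, beside 6.87% of all genes. Another 2 were negative on every array, beside 19.3%. These are GND1 and MAE1, which are named after their values were seen. ALD6, the cytosolic acetaldehyde dehydrogenase, had 0.84, 0.64, 0.39 and 0.68 on arrays 1 to 4, a mean of 0.64 ± 0.19 (SD, n = 4 arrays). IDP1, the mitochondrial isocitrate dehydrogenase, had 0.40, 0.31, 0.22 and 0.86, a mean of 0.45 ± 0.29. ZWF1, which opens the pentose phosphate pathway, was positive on 3 arrays (mean 0.41 ± 0.51), and SOL3, which acts just after it, followed the dyes (mean -0.22 ± 0.56). None of these passed (limma, adjusted p = 0.163 for ALD6). ALD6 did pass with arrays 1 and 4 paired as a culture, with the arrays as replicates and with arrays scaled (limma, adjusted p from 0.0378 to 0.0433). Those settings called 148, 109 and 48 of the 2925 genes. The fit with arrays as replicates takes arrays of the same culture as independent. ALD6 did not pass with arrays 1 and 2 paired or with arrays centred (limma, adjusted p = 0.149 and 0.102). Leaving out array 3 gave ALD6 a mean of 0.72. Turned by the dye labels, ALD6 averaged 0.022 (limma, adjusted p = 0.904) and IDP1 0.14 (limma, adjusted p = 0.464).

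Of 10 measured genes of the glutathione system, 3 were below 0 throughout, as were 19.3% of all genes. GRX4 and GRX3, monothiol glutaredoxins of iron sensing, had means of -0.50 ± 0.36 and -0.20 ± 0.19, and YCF1, the vacuolar glutathione conjugate pump, had -0.26 ± 0.20 (SD, n = 4 arrays). OPT1, an oligopeptide and glutathione transporter, followed the dyes. None passed (limma, lowest adjusted p = 0.167). Of 8 measured genes of the thioredoxin-linked list 1, TRX1, was negative throughout, beside 19.3% of all genes. Positive throughout were 0, beside 6.87% of all genes. MXR1, a methionine sulfoxide reductase that thioredoxin regenerates, had the largest mean there, 0.38 ± 0.53. Its ratios were -0.24 and 0.14 on the Cy5 arrays, and 0.81 and 0.83 on the Cy3 arrays, a dye part of -0.44. GPX2 averaged -0.31 ± 0.29, and DOT5, a nuclear thiol peroxidase, 0.097 ± 0.25.

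CCP1, the cytochrome c peroxidase of mitochondria, showed a wide gap between the dye orientations. Its ratios were 0.075 and 0.086 on the Cy5 arrays, and -1.05 and -1.21 on the Cy3 arrays, a mean of -0.53 ± 0.70 (SD, n = 4 arrays; limma, adjusted p = 0.163). CCP1 passed with arrays 1 and 4 paired and with the arrays as replicates (limma, adjusted p = 0.0480 and 0.0388). These settings called 148 and 109 of the 2925 genes. With arrays 1 and 2 paired CCP1 did not pass (limma, adjusted p = 0.149). Leaving out array 3 gave CCP1 a mean of -0.30, and leaving out array 1 gave -0.35, with the orientations unequal in number. CTA1, the peroxisomal catalase, averaged -0.35 ± 0.30. Among the regulators only SKN7 (-0.054 ± 0.28), YBP1 (-0.16 ± 0.12), which is needed for Yap1 activation, and the copper sensor CUP2 (0.024 ± 0.52) had all 4 values. Of 7 other Yap1 targets with all 4 values, YNL134C (0.58 ± 0.15) and YLR460C (0.51 ± 0.36) were positive on all arrays, as were 6.87% of all genes. FLR1, a drug efflux pump of the plasma membrane, was negative on all (-0.38 ± 0.21), as were 19.3% of all genes. YLL056C averaged -0.13 ± 0.41. YNL134C passed with arrays 1 and 4 paired, with the arrays as replicates and with arrays scaled (limma, adjusted p = 0.0494, 0.0437 and 0.0388). Those settings called 148, 109 and 48 of the 2925 genes. With arrays 1 and 2 paired YNL134C did not pass (limma, adjusted p = 0.149). Genes listed as Yap1 targets thus did not share a sign.

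**Figure D4:**
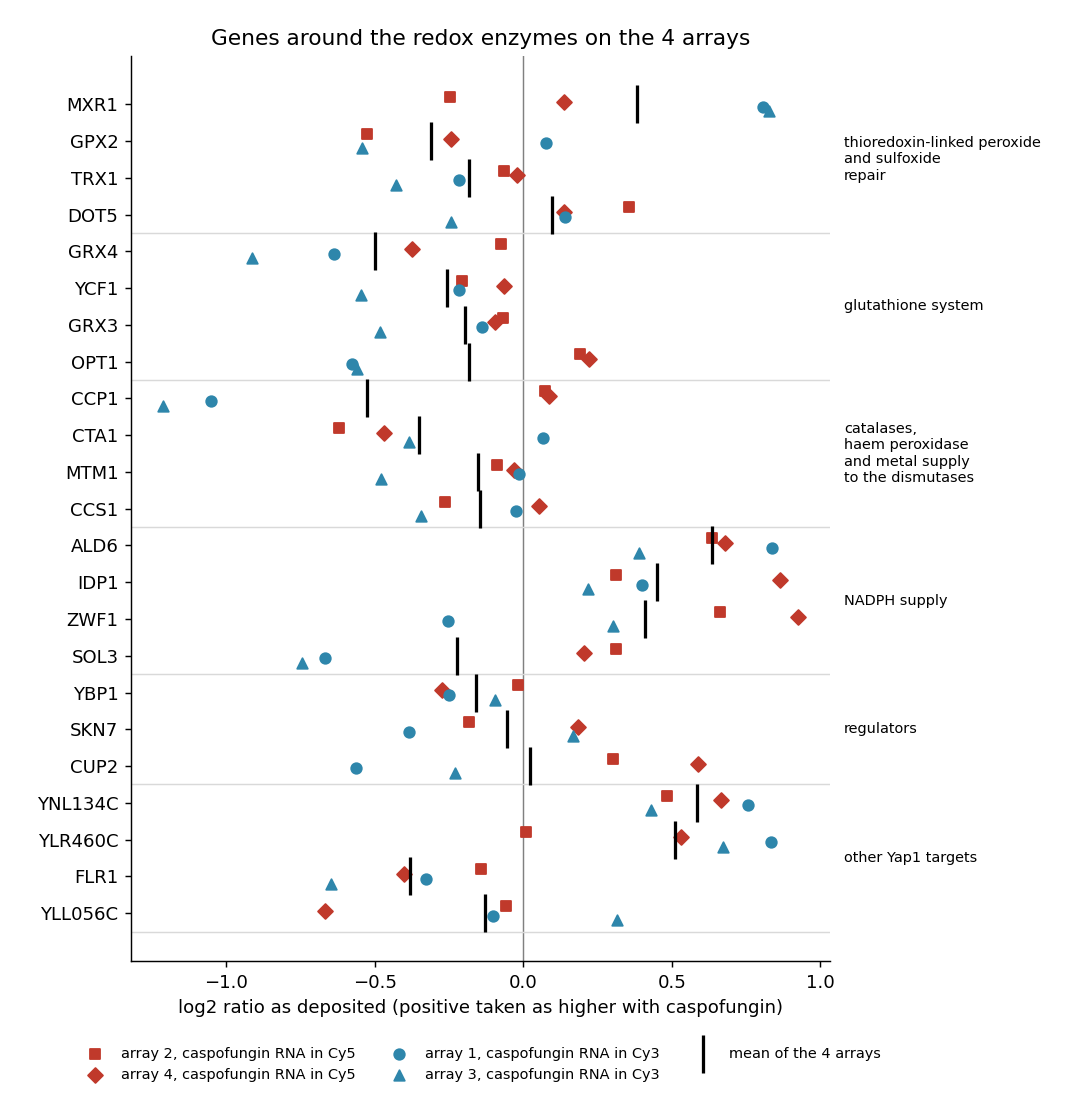
Log2 ratio (horizontal axis) on each array of the leading genes by absolute mean, at most 4 from each of 6 lists around the redox enzymes, with caspofungin RNA in Cy5 in red, in Cy3 in blue and the mean as a black bar. ALD6, IDP1, YNL134C and YLR460C lie above 0 on all arrays, and the blue points of CCP1 lie below -1 while its red points lie just above 0.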

How the data were processed

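The authors deposited 1 log2 ratio for each gene on each array, from 2-colour hybridisations of 2 cultures with swapped dyes, per the labels. The log base was read from the deposited values: raising 2 to them gave numbers of 4 decimals, to within 2e-06, for 100% of values on each array. The sources used here name no software, background correction, normalization, rule for blanks or genome build. Scale, centring and direction stay unknown. Values were present for 3215, 4346, 3228 and 3538 genes on arrays 1 to 4, and the number of arrays limits the precision. Pearson's r across genes, which are not independent replicates, was 0.65 and 0.79 between arrays of the same orientation and -0.15 to 0.14 between opposite ones.

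RefSeq (assembly R64) supplied symbols for 5654 of 6207 systematic names. For each gene with 4 values, culture means were tested against 0 with limma 3.58.1 (R 4.3.3). Since it is not stated which hybridisations came from the same culture, both pairings of opposite orientation were fitted (1 with 2, or 1 with 4), and the larger p was adjusted by Benjamini-Hochberg over 2925 genes (threshold 0.05). The dye part was tested likewise on the difference between orientations divided by 2. The procedure was run on simulated data with arrays drawn independently and planted changes larger than the mean of any redox gene. That run does not check the pairing into cultures or changes of the size seen here. Named are the 10 redox genes, the paralogues TRX1 and TRR2, HSP12, the leading genes of each list by absolute mean (at most 4), and the 5 genes nearest to GRX1. The genes and lists were chosen with earlier results of these data known. Alternatives were the pairing, arrays as replicates with a dye term, centring, scaling, genes on at least 3 arrays, turned signs, leaving out each array and, added after seeing the data, centring with turned signs. The fit with arrays as replicates takes arrays of the same culture as independent, so its p-values are too small to stand for cultures.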

Additional observations from a re-analysis of the deposited data

Results flagged for a closer look

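MTM1, the mitochondrial carrier gene, had a log2 ratio of -0.48 on array 3 that lay apart from -0.014, -0.087 and -0.029 on arrays 1, 2 and 4, with a gap of 0.843 of its whole range. That share exceeds the 95% critical value of Dixon's test for 4 values. Chance flags about 1 in 20 groups, and 38 genes were looked at. None of the 10 redox enzyme genes was set apart in this way. Where the ratios split by dye orientation, as in TSA1, TSA2 and SOD2, this test can hardly flag a single array.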

How the results depend on the processing

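The count of redox genes past the test was 0 under each alternative run. The count over all genes was 148 with arrays 1 and 4 paired, 109 with arrays as replicates and a dye term, 10 centred, 48 scaled, 0 with genes on at least 3 arrays, 0 turned by the dye labels, and 1 to 93 leaving out an array (93 without array 1, 75 without array 3). The redox genes past the dye test numbered 2 with arrays 1 and 2 paired (16.6% of all genes), 3 with arrays as replicates (20.9%), 3 scaled (20.2%), 0 centred (8.1%) and, with a dye term on 3 arrays, 0 to 5 leaving out an array (5 without array 1, 43.6%, and 3 without array 3, 39.9%). The median of the redox genes' means ran from -0.018 to 0.052 leaving out an array. Means that changed sign, none of them past the test, were with centring TRR1 (0.043), TSA2 (0.049), SOD1 (0.083), GRX2 (0.011) and SKN7 (0.059), with scaling TRR1 (0.016), SOD1 (0.091), GRX2 (0.050) and SKN7 (0.058), and turned by the dye labels TRX2 (-0.017), TSA1 (0.47), SOD1 (0.091), GRX2 (0.31), MXR1 (-0.44), TRX1 (0.14), GRX4 (0.28), YCF1 (0.12), GRX3 (0.12), OPT1 (0.39), CCP1 (0.61), MTM1 (0.094), CCS1 (0.039), SOL3 (0.48), YBP1 (0.014), SKN7 (0.055), YNL134C (-0.010), YLR460C (-0.24) and FLR1 (0.11). Leaving out an array makes the orientations unequal in number, so that the dye part no longer cancels in the means. It gave TRR1 -0.14 to 0.0039, TSA2 -0.19 to 0.053, SOD1 -0.093 to 0.016, SOD2 -0.085 to 0.21, GRX2 -0.26 to 0.037, SKN7 -0.13 to 0.056, CUP2 -0.16 to 0.22 and YLL056C -0.28 to 0.052. The dye part with centring turned for AHP1 (-0.0085) and GRX1 (-0.025), and leaving out an array gave TRX2 -0.080 to 0.047, AHP1 -0.029 to 0.11 and GRX1 -0.094 to 0.14. The cause was not tested. The dye test within cultures was not run on genes with 3 values. Centred and turned, 0 redox genes passed. Depth is not given by ratios. Each ratio already pairs both parts of a culture.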

Other observations

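Genes of the lists beyond those named by rule fell into both dye orders, and they are named here after their values were seen. Ratios were positive with caspofungin RNA in Cy5 and negative with it in Cy3 for the mitochondrial thioredoxin TRX3 (0.53 and 0.29 on the Cy5 arrays 2 and 4, and -0.26 and -0.81 on the Cy3 arrays 1 and 3), the peroxide sensor HYR1 (0.68 and 0.44, and -0.16 and -0.57), the sulfoxide reductase MXR2 (0.52 and 0.31, and -0.14 and -0.69) and the mitochondrial glutaredoxin GRX5 (0.36 and 0.32, and -0.71 and -0.67). The drug pump SNQ2 had the same order (0.42 and 0.56, and -0.88 and -0.56).

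The reverse order, shared with TSA2, was found in 3 genes of glutathione synthesis and recycling and in 13.4% of all genes, while GRX5 and OPT1 of the same list had the other order. GSH1, the first enzyme of synthesis, had -0.17 and -0.21 on the Cy5 arrays, and 0.17 and 0.43 on the Cy3 arrays. GSH2, the second enzyme, had -0.41 and -0.33, and 0.63 and 0.13. GLR1, glutathione reductase, had -0.41 and -0.39, and 0.49 and 0.12. CTR1, the copper transporter of the plasma membrane, had -0.50 and -0.39, and 0.57 and 0.24. OYE2, an NADPH oxidoreductase, had -0.36 and -0.084, and 0.53 and 0.37. Whether these orders follow the dyes or the drug depends on the reading of the ratios and was not tested.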
